A study of Mus musculus with 6 samples.

Results

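The load-response genes of skeletal muscle were examined as a set of 10 named genes, namely Ankrd1, Ankrd2, Csrp3, Mustn1, Fhl1, Xirp1, Xirp2, Yap1, Ctgf (also called Ccn2) and Cyr61 (also called Ccn1). They were chosen by name as ankyrin repeat, LIM-domain and Xin genes of mechanically loaded muscle together with YAP and its target genes. All 10 were measured by 1 probe each, out of 25005 genes and transcripts tested and 44931 on the array. Quadriceps RNA came from male AR97Q mice, a model of spinal and bulbar muscular atrophy that carries the human androgen receptor with 97 CAG repeats on a C57BL/6J background, and every mouse of both groups carried this transgene, whose promoter is not given in the sources used here. In the exercise group, 3 mice ran, after acclimation, on a forced wheel at 5 m/min for 60 min a day, 5 days a week, for 4 weeks from 5 weeks of age. Per the paper, mice sampled at 9 weeks of age were killed on the day following the final run. The sedentary group was 3 mice that did not run. Each array held the RNA of 1 mouse at 9 weeks of age, wild-type mice were not analysed here, and the comparison therefore describes running within AR97Q muscle only.

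Muscle fibres sense load at the Z-disc and along titin, where ankyrin repeat and LIM-domain proteins sit at the sarcomere and can also enter the nucleus. Xin proteins bind actin filaments at sites of strain and repair. A separate route runs through YAP, a transcriptional coactivator held back by the Hippo kinases, which acts with TEAD factors on target genes such as Ctgf, Cyr61 and Ankrd1, while the coactivators of SRF respond to actin assembly.

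The promoters bear on this second route because TEAD factors bind the element CATTCC, known in muscle genes as MCAT. Windows of 250 bases before the start site were taken from RefSeq (build GRCm38.p6), which held entries for 8 of the 10 genes, in 10 windows, with no entry for Ctgf and Xirp1. On either strand, CATTCC was found in 3 genes, namely Ankrd1, Yap1 and Cyr61, against 12.6% of the 32851 windows of all genes. Shown here are the promoters of the 3 genes with no overlap between the groups, with each motif found in capitals (CATTCC or its reverse complement GGAATG in Ankrd1 and Cyr61, a MEF2 site in Xirp2). They lie at chr19:36119845-36120094 on the minus strand for Ankrd1, at chr3:145649986-145650235 on the minus strand for Cyr61 and at chr2:67445752-67446001 on the plus strand for Xirp2, and each is written 5′ to 3′ in the direction of its gene.
Ankrd1: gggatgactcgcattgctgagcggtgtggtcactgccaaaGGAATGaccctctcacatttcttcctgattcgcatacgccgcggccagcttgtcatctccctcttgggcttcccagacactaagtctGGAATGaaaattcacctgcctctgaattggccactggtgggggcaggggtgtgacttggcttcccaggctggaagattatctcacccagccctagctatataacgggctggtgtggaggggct
Cyr61: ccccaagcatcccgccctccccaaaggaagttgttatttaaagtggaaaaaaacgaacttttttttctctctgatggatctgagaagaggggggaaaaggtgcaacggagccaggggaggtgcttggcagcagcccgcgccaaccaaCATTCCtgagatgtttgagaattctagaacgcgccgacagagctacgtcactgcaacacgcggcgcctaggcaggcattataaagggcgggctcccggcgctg
Xirp2: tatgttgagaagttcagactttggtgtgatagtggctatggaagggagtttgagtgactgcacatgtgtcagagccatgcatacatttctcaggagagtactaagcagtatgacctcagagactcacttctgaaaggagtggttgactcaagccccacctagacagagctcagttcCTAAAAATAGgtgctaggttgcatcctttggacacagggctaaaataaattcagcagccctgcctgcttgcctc
Ankrd1 held the element at a pair of positions, 210 to 205 and 123 to 118 bases before the start, Yap1 held it 141 to 136 bases before its start and Cyr61 103 to 98 bases before its start. A MEF2 site was found only in Xirp2 among the 8 genes, 74 to 65 bases before the start, and in 2.92% of all windows. The CArG box, to which SRF binds, was found only in 1 of the Fhl1 windows, 102 to 93 bases before that start, and in 1.47% of all windows. The muscle E-box CAGCTG was found in none of the members' windows and in 13.0% of all windows. No match overlapped another. A match of letters is a description of the sequence, and no binding was measured here.

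Levels are given as log2 signal relative to the 75th percentile of the same array, so that 0 is the signal below which 75% of the probes of that array lie, and differences are exercise minus sedentary on that scale. All 10 genes were well above background on all 6 arrays and none was saturated. None of the 10 passed the test (limma with a Benjamini-Hochberg adjusted p under 0.05), against 17.6% of everything tested, or 11.5% higher and 6.12% lower in the exercise group. At an unadjusted limma p under 0.05 there were 4, namely Ankrd1 and Csrp3 with lower and Xirp2 and Cyr61 with higher levels in the exercise group, against 37% of everything tested. The groups did not overlap for 3 of the 10, against 43.2% of everything tested. The unadjusted count was thus near the share of the whole array, and the other counts were below it. The median difference of the 10 genes was -0.264, with 7 below and 3 above 0, beside a median of 0.0259 over everything tested. Only Ankrd1 differed by at least 1 on the log2 scale.

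**Figure D1:**
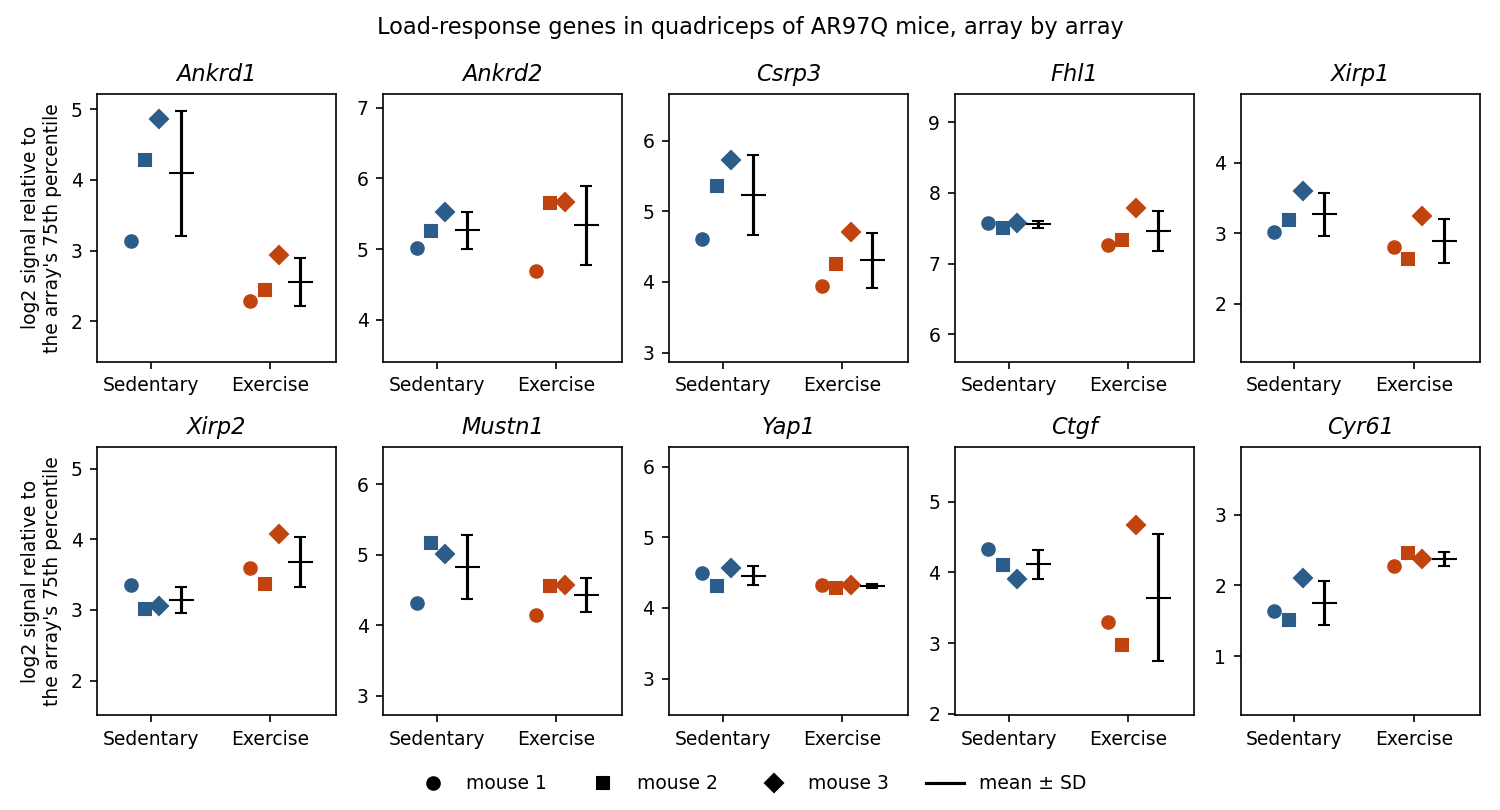
Log2 signal relative to the 75th percentile of each array (vertical axis, same span of values in every panel) of the 10 load-response genes in the sedentary (blue) and exercise (orange) arrays, with 1 point per mouse, its number given by the symbol, and the mean ± SD beside each group (n = 3). The 3 exercise arrays lie below the 3 sedentary arrays for Ankrd1 and above them for Xirp2 and Cyr61, and overlap them for the other 7 genes.

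The arrays themselves differed in a way that touches these values. The 75th percentile signal was 251 to 257 on the exercise arrays and 310 to 384 on the sedentary arrays. The ending of each array's barcode began with the same number for the exercise arrays and sedentary mouse 1. It began with another number for sedentary mice 2 and 3. This number is read here as the strip of the slide, though no label names a strip or a batch. With the strip as a block, limma passed 3 genes and transcripts in place of 4398, with 4827 at an unadjusted p under 0.05, so differences are also given against sedentary mouse 1 alone, within the shared strip. Without scaling between arrays, the median difference of everything tested was -0.447, and scaled on 7 spike-in probes it was -0.516, so the directions below are relative to the bulk of the array.

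Ankrd1 encodes the cardiac ankyrin repeat protein CARP, a titin-bound factor induced in stretched and injured muscle. Its log2 levels (probe A_52_P120803) were 2.28, 2.44 and 2.94 in exercise mice 1, 2 and 3, and 3.13, 4.28 and 4.86 in sedentary mice 1, 2 and 3. Every exercise value was under every sedentary value, but the gap between the nearest arrays was 0.19 while the sedentary mice alone spanned 1.73. The difference was -1.54 (SE 0.44), a signal 2.91-fold higher in the sedentary group (exercise over sedentary 0.344, 95% interval 0.163 to 0.727), with an adjusted p of 0.061 by limma. The exact two-sided permutation test gave p = 0.1, the smallest that 3 against 3 allows. Of everything tested, 1.01% had a larger absolute difference. Against sedentary mouse 1 alone the difference was -0.58, and against sedentary mice 2 and 3 it was -2.02, so the difference was mostly against 2 of the 3 sedentary mice. Without sedentary mouse 1, Ankrd1 passed the test (adjusted p = 0.0127), and without any other single mouse it did not (adjusted p from 0.0923 to 0.171). Leaving out sedentary mouse 1 puts each group on a strip of its own, so group and strip cannot be told apart in that fit, for Ankrd1 or for Csrp3 and Mustn1 below. Cell number and RNA per cell cannot be told apart in this whole-muscle RNA, here or for the genes that follow.

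Ankrd2, the closest relative of Ankrd1 in this set, is a titin-bound ankyrin repeat protein typical of slow fibres and of stretched muscle. Its log2 levels (probe A_51_P295315) were 4.69, 5.65 and 5.67 in the exercise mice and 5.01, 5.26 and 5.53 in the sedentary mice. Exercise mouse 1 was the lowest of all 6 arrays and the other exercise mice the highest. The difference was 0.07 (SE 0.30, adjusted p = 0.886 by limma), and the 95% interval of the ratio ran from 0.638 to 1.72. Its sign changed under quantile normalisation (-0.15), without scaling (-0.40) and on the spike-in scale (-0.47), so no direction is given for Ankrd2. It was 0.33 against sedentary mouse 1.

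Csrp3 encodes muscle LIM protein, a Z-disc protein linked to stretch sensing in heart and slow muscle. It measured 3.94, 4.26 and 4.71 in the exercise mice and 4.61, 5.36 and 5.72 in the sedentary mice (log2 level, probe A_51_P133684). As with Ankrd1, the lowest sedentary value was that of mouse 1, and here it lay within the range of the exercise mice. The difference was -0.92 (SE 0.33), a ratio of 0.527 with a 95% interval of 0.305 to 0.912, and the adjusted p by limma was 0.0961. It was -0.31 against sedentary mouse 1 and -1.23 against sedentary mice 2 and 3. Without sedentary mouse 1, Csrp3 passed (adjusted p = 0.0312).

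Fhl1 encodes a LIM-only protein of the sarcomere that is among the most abundant LIM proteins of skeletal muscle. Its log2 level (probe A_51_P335000) was 7.26, 7.34 and 7.79 in the exercise mice and 7.58, 7.5 and 7.58 in the sedentary mice. The sedentary mice lay within 0.0831 of each other while the exercise mice spanned 0.529, with exercise mouse 3 the highest of all. The difference was -0.09 (SE 0.15, adjusted p = 0.685 by limma), and the interval of the ratio ran from 0.725 to 1.21. Against sedentary mouse 1 it was -0.12. The Fhl1 difference was -0.50 after quantile normalisation, -0.57 without scaling and -0.64 on the spike-in scale. It passed without scaling and on the spike-in scale, where 11897 and 10823 of the 25005 tested passed. Its size depended on the scaling, as did the median difference of everything tested.

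The Xin proteins Xirp1 and Xirp2, which bind actin at damaged or loaded sarcomeres and at muscle ends, gave differences of opposite sign relative to the bulk of the array, neither of which passed the test. Xirp1 (probe A_55_P2116744) measured 2.80, 2.63 and 3.24 in the exercise mice and 3.02, 3.19 and 3.60 in the sedentary mice, and the groups overlapped. Xirp2 (probe A_66_P138154) measured 3.60, 3.37 and 4.07 in the exercise mice and 3.35, 3.01 and 3.06 in the sedentary mice. Its groups did not overlap, but only by 0.014, between exercise mouse 2 and sedentary mouse 1. The difference was -0.38 (SE 0.21, adjusted p = 0.246 by limma) for Xirp1 and 0.54 (SE 0.20, adjusted p = 0.107) for Xirp2, whose ratio was 1.45 with a 95% interval of 1.04 to 2.04. Against sedentary mouse 1 alone these differences were -0.13 and 0.33. On the spike-in scale the Xirp2 difference was -0.0015, so its direction holds only relative to the bulk of the array. The difference of Xirp1 minus Xirp2 within an array, in which a single factor for a whole array cancels, shifted by -0.92 from the sedentary to the exercise group without overlap, at -0.34, 0.18 and 0.54 in the sedentary and -0.80, -0.74 and -0.83 in the exercise mice, and the shift was -0.45 against sedentary mouse 1. This pair and the others below were picked after the values were seen, so they are given with no test, and only the shift between groups is read.

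Mustn1 encodes a small nuclear protein of the musculoskeletal system that appears in regenerating and growing muscle. It measured 4.15, 4.56 and 4.57 in the exercise mice and 4.31, 5.17 and 5.01 in the sedentary mice (log2 level, probe A_52_P335064). Sedentary mouse 1 again lay among the exercise arrays. The difference was -0.40 (SE 0.25, adjusted p = 0.287 by limma), and it was 0.12 against sedentary mouse 1 and -0.66 against sedentary mice 2 and 3, so its direction turned within the shared strip. Without sedentary mouse 1 it passed (adjusted p = 0.0463).

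**Figure D2:**
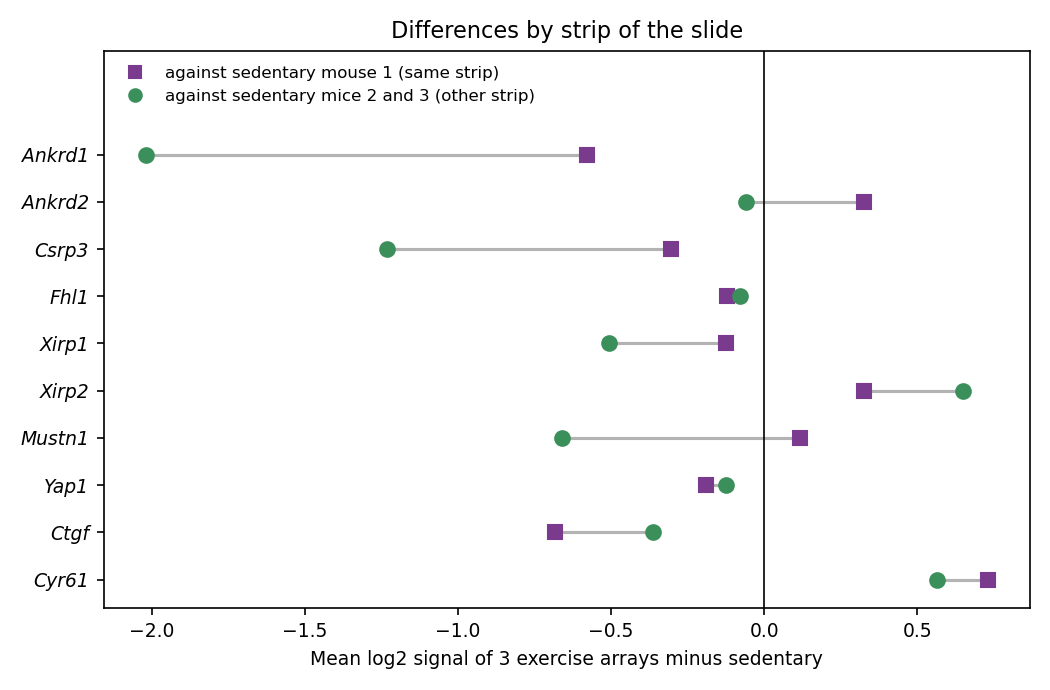
Mean log2 signal of the 3 exercise arrays minus that of sedentary mouse 1, which shared their strip of the slide (squares), and minus the mean of sedentary mice 2 and 3 on the other strip (circles), for each load-response gene, with no error shown because 1 array is a single value. Ankrd1 moves from -0.58 to -2.02, Csrp3 from -0.31 to -1.23 and Mustn1 from 0.12 to -0.66, while Cyr61 lies at 0.73 and 0.56.

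Yap1, the coactivator at the end of the Hippo pathway whose own promoter window held 1 match to CATTCC, had the smallest SE of the 10 genes. Its log2 levels (probe A_55_P1953459) were 4.32, 4.28 and 4.33 in the exercise mice and 4.50, 4.31 and 4.56 in the sedentary mice. The exercise mice lay within 0.0528 of each other, and sedentary mouse 2 fell among them. The difference was -0.15 (SE 0.10, adjusted p = 0.310 by limma), and the 95% interval of the ratio ran from 0.768 to 1.06. Against sedentary mouse 1 it was -0.19. The Yap1 difference was -0.34 after quantile normalisation, -0.62 without scaling and -0.69 on the spike-in scale. It passed without scaling and on the spike-in scale, where 11897 and 10823 of the 25005 tested passed. Its size depended on the scaling, as did the median difference of everything tested.

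Its targets Ctgf and Cyr61, secreted matricellular proteins of the CCN family, did not follow each other across the arrays. Ctgf (probe A_51_P157042) measured 3.30, 2.97 and 4.67 in the exercise mice and 4.33, 4.10 and 3.91 in the sedentary mice. Exercise mice 1 and 2 were below every sedentary mouse and exercise mouse 3 above them all, so the difference of -0.47 had an SE of 0.43 (adjusted p = 0.465 by limma, interval of the ratio 0.348 to 1.5). It was -0.68 against sedentary mouse 1, -0.98 without exercise mouse 3 (adjusted p = 0.0607), -0.13 without exercise mouse 2 and -0.30 without exercise mouse 1. Cyr61 (probe A_51_P252859) measured 2.27, 2.46 and 2.38 in the exercise mice and 1.64, 1.51 and 2.11 in the sedentary mice. The groups were separated by 0.16, and exercise mouse 3, so high for Ctgf, was unremarkable for Cyr61. The difference of Cyr61 was 0.62 (SE 0.17), a ratio of 1.53 with a 95% interval of 1.16 to 2.04, and its adjusted p of 0.0528 by limma was the lowest of the 10 genes. It was 0.73 against sedentary mouse 1 and 0.56 against sedentary mice 2 and 3, so unlike Ankrd1 it was at least as large within the shared strip. Cyr61 passed in 5 of the limma fits with another setting, among them centring on the array median (0.71, adjusted p = 0.0469), but it was 0.15 without scaling and 0.08 on the spike-in scale.

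**Figure D3:**
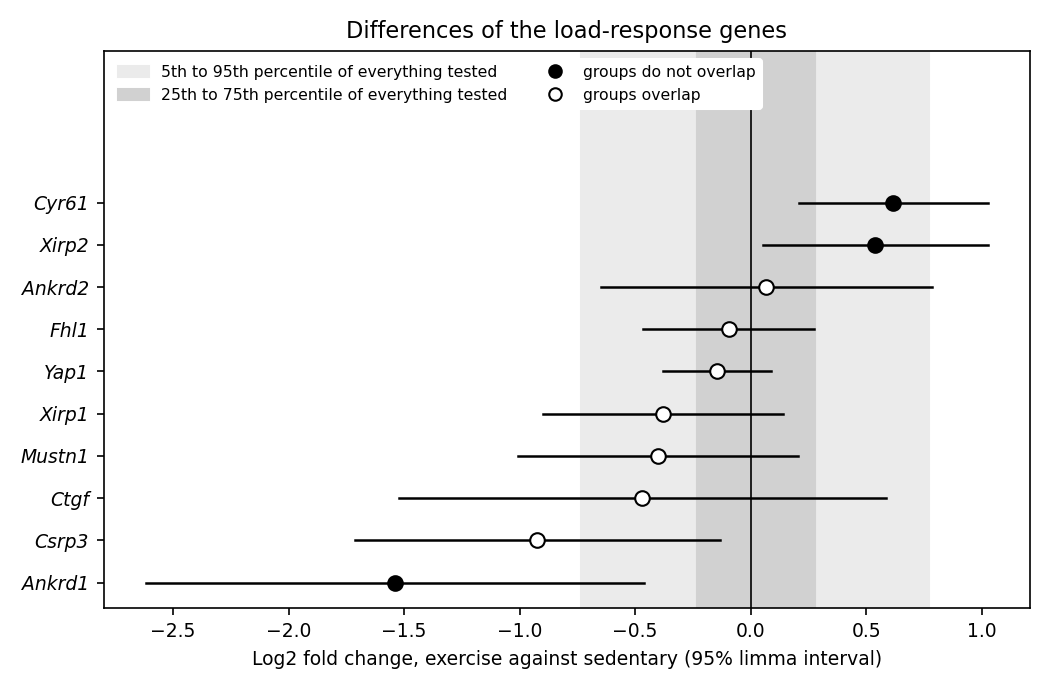
Log2 fold change of exercise against sedentary (points) with 95% limma intervals (lines) for the 10 load-response genes, filled where the groups did not overlap, over bands for the middle of everything tested. Ankrd1 at -1.54 and Csrp3 at -0.92 lie below the band from the 5th to the 95th percentile (-0.735 to 0.772), and the intervals of 6 genes include 0.

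Exercise mouse 3 was the highest of the exercise arrays for 9 of the 10 genes, against 32.9% of everything tested, Cyr61 being the exception. Within the sedentary group, mouse 3 had the top value for 6 and mouse 1 the bottom value for 5 of the genes, against 32.8% and 36.3% of everything tested. These counts are a description, since all genes of a mouse were read on 1 array. The 3 named genes whose levels followed Ankrd1 most closely over the 6 arrays were Ttc26, Ppm1e and Zscan18, each with a Pearson r of 0.998 among 14476 named genes compared, as a description over arrays that share a slide. None of the 3 passed the test (adjusted p = 0.0852, 0.0672 and 0.0553 by limma), and the Ttc26 probe was well above background on only 4 of the 6 arrays.

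Of 10 relatives of these genes, all tested, 1 passed higher and 1 lower, beside 11.5% and 6.12% of everything tested. Their median difference was -0.143. Without scaling 7 passed, all lower, beside 11280 of the 25005 genes and transcripts tested passing lower. On the spike-in scale 6 passed, all lower, beside 10490 of the 25005. Ankrd23, the third muscle ankyrin repeat protein of the titin complex, was higher at 6.58, 6.57 and 6.86 in the exercise mice against 5.90, 5.70 and 6.0 in the sedentary mice (difference 0.80, SE 0.13, adjusted p = 0.0236 by limma), and a second Ankrd23 probe differed by 1.47. It was 0.77 against sedentary mouse 1. Within arrays, Ankrd1 minus Ankrd23 shifted by -2.34 and Ankrd1 minus Ankrd2 by -1.61, both without overlap of the groups, and by -1.35 and -0.90 against sedentary mouse 1. Fhl2, a LIM-only relative of Fhl1 best known from heart, was lower at 0.24, 0.40 and 0.43 against 0.78, 1.29 and 1.15 (difference -0.72, SE 0.15, adjusted p = 0.0308), and -0.42 against sedentary mouse 1. Within arrays, Fhl1 minus Fhl2 shifted by 0.62 without overlap (0.30 against sedentary mouse 1), and Ctgf minus Cyr61 by -1.09 with overlap (-1.41 against sedentary mouse 1). Wwtr1, which encodes the YAP relative TAZ, differed by -0.04 (SE 0.11, adjusted p = 0.792), and by 0.03 against sedentary mouse 1.

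Around Yap1, 22 Hippo and YAP pathway genes were listed and 21 tested, Wwc1 being too dim. Of these, 1 passed higher and 1 lower (9.52%, beside 17.6% of everything tested), with a median difference of -0.0216. Without scaling 11 passed, all lower, beside 11280 of the 25005 genes and transcripts tested passing lower. On the spike-in scale 10 passed, all lower, beside 10490 of the 25005. Tead1, a main TEAD factor of muscle, was higher relative to the bulk of the array, at 2.99, 2.89 and 3.04 against 2.67, 2.30 and 2.58 (difference 0.46, SE 0.12, adjusted p = 0.0486 by limma), with a difference of 0.31 against sedentary mouse 1. Tead3 was lower at 0.50, 0.50 and 0.62 against 0.91, 0.96 and 0.88 (difference -0.37, SE 0.08, adjusted p = 0.0332), and it was -0.36 against sedentary mouse 1. Tead4 differed by 0.13 (SE 0.11, adjusted p = 0.419), though its dimmer probe gave -0.59, and it was 0.10 against sedentary mouse 1. Of 20 other YAP and TEAD target genes, 2 passed, both lower, which is 10% beside 6.12% lower and 17.6% in either direction over everything tested, with a median of -0.079. These were Foxf2, a forkhead factor of mesenchyme, at -1.86 (SE 0.41, adjusted p = 0.0338), well above background on 5 of 6 arrays, and Dock5, an exchange factor for Rac, at -0.83 (SE 0.15, adjusted p = 0.0253). Against sedentary mouse 1 they were at -1.0 and -0.65.

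Partners of these proteins at the Z-disc and along titin are the structural setting of the ankyrin repeat, LIM and Xin genes. Of 27 listed, 26 were tested, Nebl being too dim. Of these, 7 passed, all higher, which is 26.9% beside 11.5% of everything tested, with a median of 0.325. Without scaling 1 passed higher and 7 lower, beside 617 and 11280 of the 25005 genes and transcripts tested. On the spike-in scale 1 passed higher and 8 lower, beside 333 and 10490. After quantile normalisation 2 passed higher and 4 lower, beside 1864 and 1364. Ldb3 (also called Cypher), a PDZ and LIM protein of the Z-disc, differed by 1.08 (SE 0.16, adjusted p = 0.0234 by limma), and by 0.76 against sedentary mouse 1, although its other probe gave 0.17. Tcap, the cap of titin at the Z-disc and a partner of Csrp3, differed by 1.04 (SE 0.27, adjusted p = 0.0477), at 8.99, 9.45 and 9.72 in the exercise mice against 8.72, 8.43 and 7.88, and it was 0.66 against sedentary mouse 1. Synpo2, an actin-bundling Z-disc protein, differed by 0.71 (SE 0.13, adjusted p = 0.0248) on one probe, where it was 0.46 against sedentary mouse 1, and by -0.52 on the other, so its direction is uncertain. Among the others that passed were Myot, Synpo2l and Trim54, with differences from 0.42 to 0.69 relative to the bulk of the array. Ttn itself, the anchor of Ankrd1 and Ankrd2, differed by 0.28 (SE 0.19, adjusted p = 0.320), and by 0.23 against sedentary mouse 1.

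Among 14 SRF and MRTF genes, all tested, 4 passed, all higher, which is 28.6% beside 11.5% of everything tested, with a median of 0.0133. The direction depended on the scaling. Without scaling 3 passed higher and 7 lower, beside 617 and 11280 of the 25005 genes and transcripts tested. On the spike-in scale 7 passed, all lower, beside 10490 passing lower over everything tested. After quantile normalisation 2 passed higher and 2 lower, beside 1864 and 1364. In the deposited table of values 2 passed higher and 2 lower, beside 1172 and 3201. Relative to the bulk of the array, Srf itself differed by 0.44 (SE 0.10, adjusted p = 0.0329 by limma), and by 0.43 against sedentary mouse 1. Egr1, an immediate early factor, differed by 1.47 (SE 0.35, adjusted p = 0.039), the tropomyosin gene Tpm1 by 1.01 (SE 0.16, adjusted p = 0.0236) and skeletal actin Acta1 by 0.93 (SE 0.12, adjusted p = 0.0234), but the dimmer Tpm1 probes gave 0.24 and 0.39. Against sedentary mouse 1 the differences were 1.15 for Egr1, 0.67 for Tpm1 and 0.71 for Acta1. Of 20 matrix and TGF-beta genes linked to the CCN proteins, none passed by limma, beside 17.6% of everything tested. An unadjusted p under 0.05 was found for 3, beside 37% of everything tested. Their median was -0.00439. Without scaling 10 of the 20 passed, all lower, beside 11280 of 25005 passing lower over everything tested. On the spike-in scale 10 passed, all lower, beside 10490 of 25005. Over these 6 lists together, which share some genes, 106 of 108 genes were tested, 13 passed higher and 4 lower, beside 11.5% and 6.12% of everything tested.

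**Figure D4:**
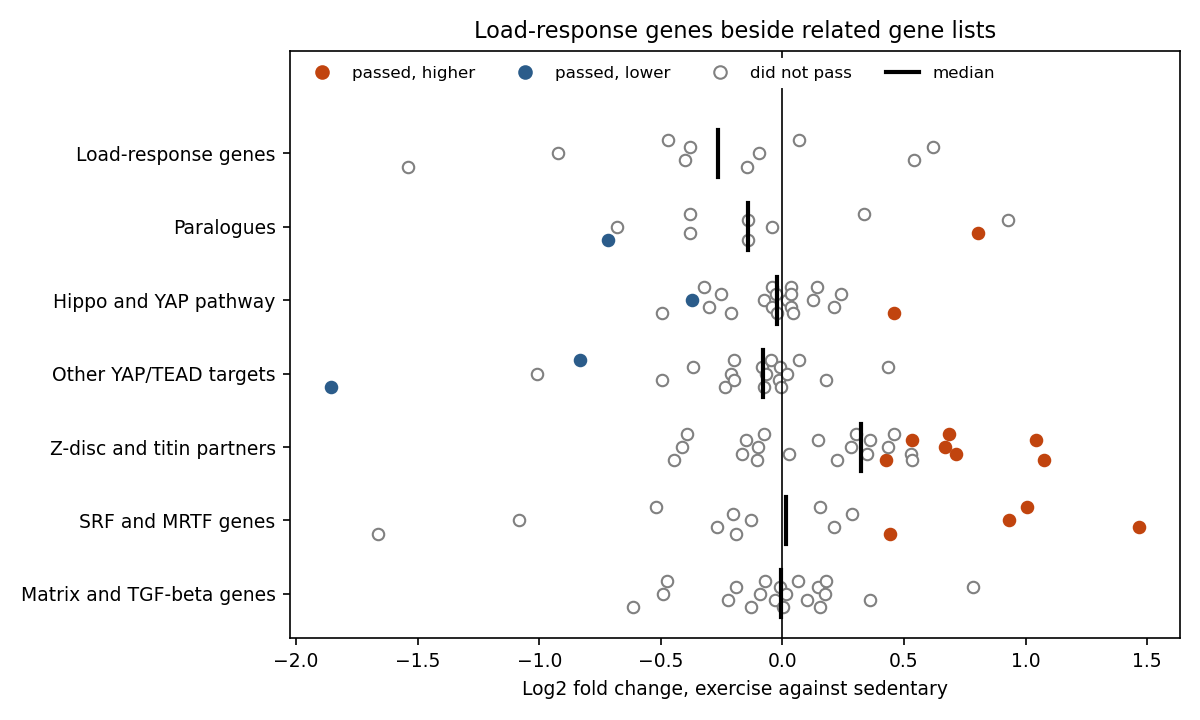
Log2 fold change of exercise against sedentary (horizontal axis) for every tested gene of the load-response set and of 6 related lists, 1 point per gene, coloured where it passed the limma test and open where it did not, with a bar at each list's median. None of the 10 load-response genes is coloured, and the 7 coloured Z-disc genes all lie above 0.

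Markers of the cell types that whole quadriceps can hold were compared in the same fit, in which 11.5% of everything tested passed higher and 6.12% lower. Their directions are relative to the bulk of the array, and their values under other scalings are not given here. All 6 muscle fibre markers passed higher, with a mean level of 9.05 to 9.22 in the exercise and 7.86 to 8.43 in the sedentary mice, the highest sedentary value being that of mouse 1, and all 6 were well above background on every array. All 5 tested satellite cell and myoblast markers lay lower (0.359 to 0.518 against 0.762 to 1.08, sedentary mouse 1 at 0.762), with Pax7 passing. All 5 tendon markers also lay lower (1.08 to 1.55 against 1.82 to 2.26, sedentary mouse 1 at 2.03), and none passed. Of the 6 smooth muscle and pericyte markers 4 lay lower, 1 of them passing, and 2 lay higher (mean level 2.6 to 2.66 against 2.95 to 3.33, sedentary mouse 1 at 2.95). Of the 4 Schwann cell markers, all lower, 1 passed (0.164 to 0.452 against 0.699 to 0.994, sedentary mouse 1 at 0.81). Of 6 fibroblast markers 4 lay lower, 1 of them passing, and 2 lay higher, at a mean level of 4.82 to 4.95 against 4.84 to 5.23. Of the 4 adipocyte markers only Lep lay higher, and it passed (difference 0.35). The other 3 adipocyte markers lay lower without passing, by as much as -0.997. The mean level of all 4 was 1.23 to 2.75 against 2.32 to 2.76. None of the 5 endothelial (1.49 to 1.88 against 1.56 to 1.76), 5 macrophage (2.38 to 2.66 against 2.42 to 2.73) or 3 red blood cell markers (3.45 to 3.97 against 2.77 to 3.74) passed. The endothelial and macrophage markers lay on both sides of 0. All 3 red blood cell markers lay higher, by 0.401 to 0.804, with sedentary mouse 1 at a mean level of 3.74. Cardiac markers, looked at because Ankrd1, Csrp3 and Fhl2 are best known from heart, had mean levels of -2.45 to -1.75 against -1.93 to -1.42, with Ryr2 below background on every array. Of the 4 tested, 2 lay higher and 2 lower, and none passed. The cardiac troponin T gene Tnnt2, the brightest of these 4, differed by -1.89 (adjusted p = 0.0545 by limma). It was at 0.09, 0.22 and 1.11 in the exercise mice and 1.29, 2.68 and 3.12 in sedentary mice 1, 2 and 3. Nppa was well above background on only 3 of the 6 arrays. The part of these cell types in the differences of the load-response genes was not tested.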

How the data were processed

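Per the file headers, the authors read 1-colour (Cy3) Agilent mouse arrays with Feature Extraction 12.1.0.3 and deposited 1 scanner file per array, whose processed signal is an intensity with background subtracted and spatial trends removed. The deposited table of values holds the same intensity times 1 factor per array (1.33 to 1.88), with medians of 42.7 to 58.5; how the factors were set is not given in the sources used here, and the table served as an alternative.

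The log2 processed signal minus the 75th percentile of each array was analysed. Control and outlier spots were left out, spots of a probe averaged, a probe kept if 3 or more of the 6 arrays had it well above background (54.6% to 59.9% of probes were so on an array), and the brightest probe taken per gene. Names came from RefSeq by transcript (34566 of 56605 probes matched). The fit used limma 3.58.1 (R 4.3.3) with no covariate and Benjamini-Hochberg adjustment over 25005 genes and transcripts. The same fit was also run on simulated arrays with known changes and no effect of the strip. Passing means an adjusted p under 0.05; of 4398 that passed, 430 higher and 264 lower also reached an absolute log2 fold change of 1. The gene set, lists and markers were chosen with earlier results of these data known. The text names every member, up to 3 passing genes per list with the largest difference and no overlap, and 7 key genes (Wwtr1, Tead1, Tead4, Ankrd23, Fhl2, Srf and Ttn); genes named outside this rule were chosen after their values were seen. Motifs were searched on both strands without mismatches. The labels number the mice within groups and name no litters; 3 arrays per group limit the precision. Tried alternatives were other scalings, background correction, filters, probe choices, variance models, blocks, the methods' t-test and leaving out each array.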

Additional observations from a re-analysis of the deposited data

How the results depend on the processing

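Of the 10 load-response genes, Ankrd1, Csrp3, Xirp1, Yap1, Ctgf and Cyr61 kept their direction in all 23 alternatives. Ankrd2 turned in 9, at -0.15 after quantile normalisation, -0.40 without scaling, -0.47 on spike-in probes, -0.015 with normexp background correction, -0.0895 in the deposited table, -0.0322 with array weights, and between -0.10 and 0.39 when each array was left out. Mustn1 turned to 0.12 when the strip was a block and within the strip that holds both groups, Fhl1 ranged from -0.26 to 0.0074 when each array was left out, and Xirp2 was -0.0015 on the spike-in scale.

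Counts of passing genes moved as follows, out of 0 load-response genes, 2 paralogues, 2 Hippo and YAP genes, 2 other YAP and TEAD targets, 7 Z-disc genes, 4 SRF genes, 0 matrix genes and 4398 of everything tested. Totals are out of 25005 tested unless another number is given, and each count is to be read beside its total. Without scaling, 11897 of everything tested passed (94.8% lower, against 34.8%), with 5 load-response genes, all lower (Ankrd1, Csrp3, Fhl1, Xirp1 and Yap1), 7 paralogues, 11 Hippo and YAP genes, 15 other targets, 10 SRF genes and 10 matrix genes. On spike-in probes, 10823 passed (96.9% lower), with 7 load-response genes, all lower (Ankrd1, Csrp3, Mustn1, Fhl1, Xirp1, Yap1 and Ctgf), 6 paralogues, 10 Hippo and YAP genes, 12 other targets, 7 SRF genes and 10 matrix genes. With normexp, 8181 passed (24.6% lower), with 3 load-response genes (Ankrd1, Csrp3 and Cyr61), 5 paralogues, 5 Hippo and YAP genes, 15 Z-disc genes, 7 SRF genes and 2 matrix genes. Array weights passed 8751, with 5 load-response genes, 6 paralogues, 4 Hippo and YAP genes, 5 other targets, 16 Z-disc genes, 8 SRF genes and 3 matrix genes. With no filter, 11659 of 44916 passed (16.5% lower). Centring on the array median passed 3555 (24.6% lower), with 1 load-response gene (Cyr61) and 1 Hippo and YAP gene. The filter on all arrays passed 5085 of 22290, with 2 of the 10 load-response genes (Ankrd1 and Cyr61) and 12 Z-disc genes. A trended, robust variance passed 5709, with 1 load-response gene, 4 paralogues, 4 other targets, 15 Z-disc genes and 3 matrix genes. Quantile normalisation passed 3228, with 1 paralogue, 1 Hippo and YAP gene and 1 matrix gene. The deposited table passed 4 paralogues, 5 other targets, 4 Z-disc genes and 1 matrix gene, with 73.2% of all 4373 calls lower. The mean of a gene's probes passed 4200, with 1 Hippo and YAP gene and 1 matrix gene. The probe with the largest SD passed 3937, with 1 other target. The methods' t-test, unadjusted, passed 8344, with 2 load-response genes (Ankrd1 and Cyr61), 4 paralogues, 6 Hippo and YAP genes, 5 other targets, 15 Z-disc genes and 3 matrix genes, and with Benjamini-Hochberg 642, with 1 Hippo and YAP gene and 0 paralogues, other targets, Z-disc or SRF genes. The cause of these shifts was not tested.

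Leaving out each array gave 0 to 5536 calls of everything tested, 0 to 3 load-response genes, 0 to 4 paralogues, 0 to 2 Hippo and YAP genes, 0 to 4 other targets, 0 to 12 Z-disc genes, 0 to 5 SRF genes and 0 to 3 matrix genes. Each upper value came without sedentary mouse 1, and without any other mouse at most 1 of everything tested passed by limma, with 6686 to 8146 at an unadjusted p under 0.05. With the strip as a block, limma passed 3 of everything tested and 0 genes of any list, and within the strip that holds both groups 0, with 4065 at an unadjusted p under 0.05. The replicate block, in which mice of the same number are paired, passed 0 of everything tested and 0 genes of any list by limma, with 8591 at an unadjusted p under 0.05; Ankrd1 then had an adjusted p of 0.0609. Same-numbered arrays correlated at 0.0154, 0.0846 and 0.0361 in their deviations from the group means, and the numbers were not taken to pair the mice. Every load-response gene was well above background on all arrays.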
